A study of Aedes aegypti with 6 samples.

Results

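A set of 45 Aedes aegypti genes was counted in larvae and all but missing in adults at each of 3 collection sites. The genes were chosen by their counts per 1000000 gene counts (CPM, a gene's count times 1000000 over the library's total over genes), with at least 50 CPM in each of 3 larval libraries and at most 1 CPM in each of 3 adult libraries. They are 45 of 19804 gene identifiers in the deposited tables, of which 8892 had a count in any library. A further 9 identifiers were left out of the set by name, and 1 of them also met both thresholds. Because the larval and adult values chose the genes, the difference between the stages is described here and not tested.

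The mosquitoes came from 3 locations that the labels call K1 (location 1), K3 (location 2) and C (location 3), and whole bodies were used. RNA was pooled from 10 mosquitoes for each stage at each location, which gave 1 larval and 1 adult library per location and 6 libraries in all. The labels used here give no strain, treatment, larval age, adult sex or feeding state. In RNA from whole bodies, fewer cells of a type and less RNA per cell cannot be told apart.

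Aedes aegypti is the mosquito that carries dengue and yellow fever viruses, and it passes through complete metamorphosis. Its larvae live in water, feed and grow between moults, and in the pupa most larval tissues are broken down while the adult body is built. Genes used at one stage and silent at another are therefore a known feature of such insects, and larval cuticle, gut and storage proteins are well-known cases. The tables pair no identifier with a name, and 0 of the 19804 matched the RefSeq table of assembly AaegL5.0, so no member is given a name, a role or a sequence. For the same reason the stage labels were not checked against marker genes.

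Counts assigned to genes ranged from 12049243 to 18328454 in the larval libraries and from 3271618 to 10450701 in the adult ones. Unmapped reads made up 55.4 to 58.7% of the larval reads and 22.5 to 44.4% of the adult reads. Reads placed at several sites made up 11.5 to 16.2% of the larval reads and 36.0 to 62.2% of the adult reads. Such reads were counted for no gene, so a member with near-identical copies elsewhere in the genome has an uncertain count. The threshold of 1 CPM equalled 10.5, 3.27 and 4.36 counts in the adults of locations 1, 2 and 3. The lowest count of a member in any larval library was 677. The larval values therefore rest on many reads, while the adult values rest on few or none.

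Together the 45 genes held 6.87% of the gene counts in the larvae of location 1, 5.40% at location 2 and 2.98% at location 3, a mean of 5.09% ± 1.96 (SD, n = 3). In the adults of the same locations they held 33, 0 and 22 counts in all. Larval means over the 3 libraries ran from 93.6 to 10250 CPM. They exceeded 1000 CPM for 15 members, lay between 300 and 1000 CPM for 13 and fell below 300 CPM for 17. The 5 members with the most counts in a larval library took 55.9%, 56.9% and 50.9% of the members' counts there, at locations 1, 2 and 3. The 20 with the fewest took 6.22%, 5.80% and 8.80%. These 5 and 20 were picked anew in each library, and the 5 were not the same genes at each location.

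AAEL007591 had the highest mean. Its larvae held 13270, 11124 and 6355 CPM, in the order of locations used throughout, and its adults 1, 0 and 1 counts. It was the most abundant member in all 3 larval libraries and ranked 8th, 17th and 58th among all genes there. AAEL009555 followed with 9684, 3570 and 3242 CPM in larvae and a single adult count, at location 3. Its larvae of location 1 stood above those of the other two locations, which differed little. AAEL000896 was at 5033, 8193 and 389 CPM in larvae, and AAEL000890 at 4404, 4948 and 487 CPM. Both were high in the larvae of locations 1 and 2 and low at location 3. AAEL000896 had no adult count, while AAEL000890 had 6 counts in the adults of location 1 and none elsewhere.

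AAEL007592 was at 3696, 2112 and 2614 CPM in larvae. Its 10 counts in the adults of location 1 were the most of any member in adults. AAEL015140 was at 6012, 150 and 468 CPM, so that its larval mean of 2210 CPM rests mainly on the larvae of location 1. AAEL004239 was at 2788, 1918 and 1141 CPM, and AAEL005607 at 1165, 2917 and 1073 CPM. The last 3 had no count in any adult library. For every one of these 8 genes the larval and adult values did not overlap, which the choice of members fixes.

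**Figure D1:**
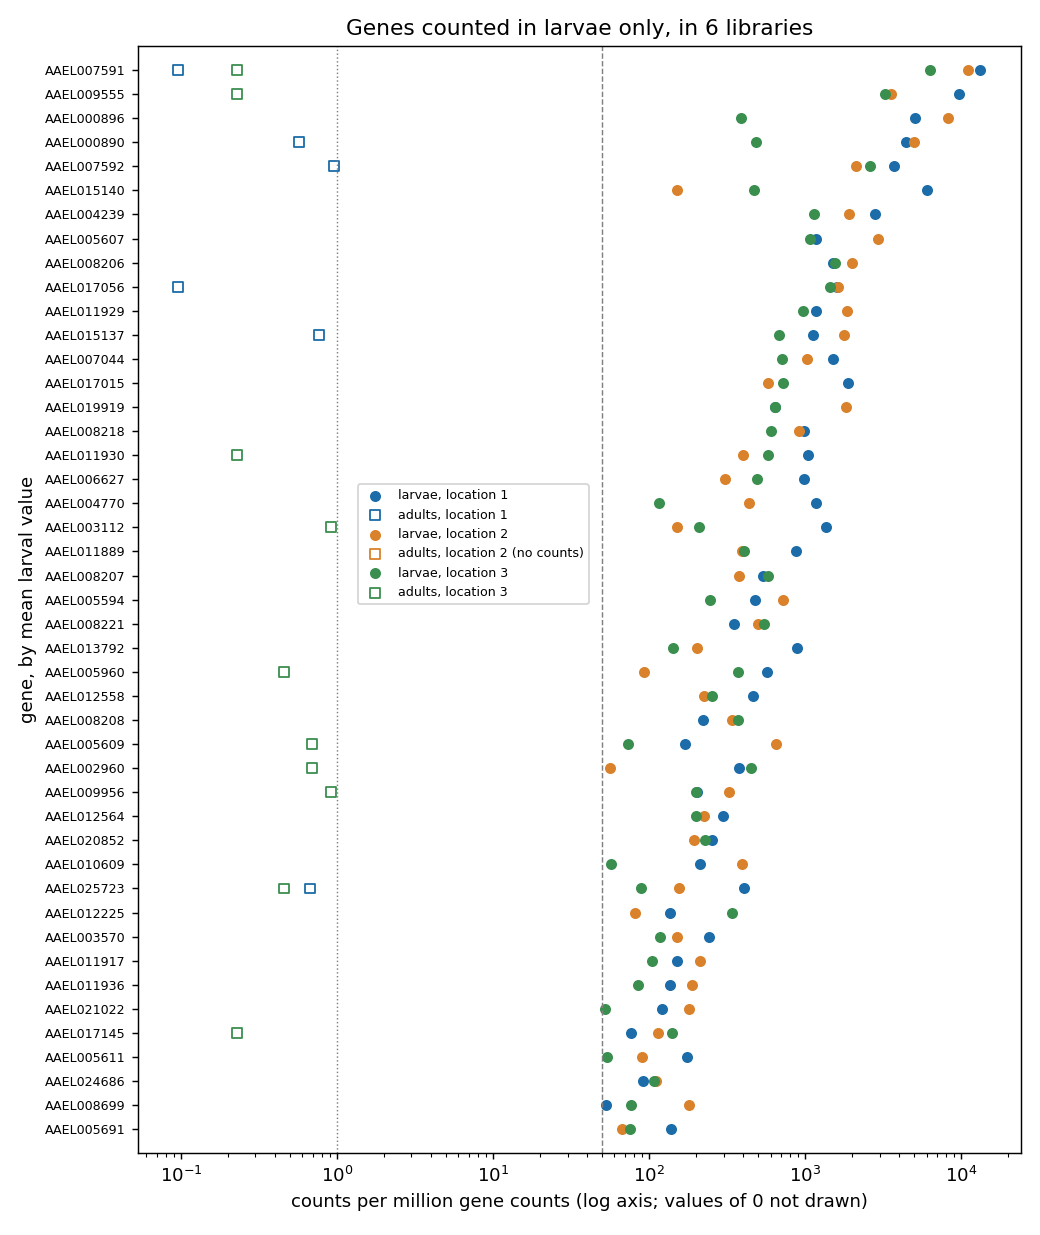
CPM of each of the 45 genes on a log axis, with filled circles for the 3 larval libraries and open squares for adult libraries with a count, in 1 colour per location. Values of 0 are not drawn, the dashed line marks 50 CPM and the dotted line 1 CPM. The larval values spread over 40.1-fold for AAEL015140 and over 1.13-fold for AAEL017056, and no adult of location 2 has a count.

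In adults, 31 of the 45 genes had no count in any library, 8 had 1 to 3 counts over the 3 libraries, and 6 had more than 3. For the 31, the larval mean was set against 1 count in each of the 3 adult libraries, a mean of 0.210 CPM. It was 445-fold to 21587-fold higher, with a median of 2211-fold. These ratios are no strict bounds, since 3 counts in the adult library of lowest depth alone would give a higher adult mean. They leave out the spread between pools. They do not fully cover counting error either, since reads copied from 1 molecule are not independent. For the 6 genes with more than 3 adult counts the ratio of stage means ran from 577 for AAEL025723 to 17136 for AAEL000890.

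The adult counts came from 2 of the 3 locations. Of the 14 members with an adult count, 4 had it at location 1 alone, 8 at location 3 alone and 2 at both. Summed over all 45 genes, the adults of location 1 reached 3.16 CPM and those of location 3 reached 5.05 CPM. The adults of location 2 had 0 counts among 3271618, which allows up to 0.917 CPM for the whole set. That library also had the fewest genes with a count, 3305, against 5459 and 5805 in the other adults. Reads placed at several sites were 62.2% of its reads. Only 7.74% of its reads were counted for a gene, against 18.2% and 10.4% in the adults of locations 1 and 3. The part of these differences in the missing counts was not tested. The largest single adult values were 0.957 CPM for AAEL007592 at location 1, and 0.917 CPM for AAEL003112 and AAEL009956 at location 3. AAEL007591, the most abundant in larvae, had 2 adult counts, whereas AAEL025723, with a larval mean of 217 CPM, had 9.

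The larval threshold separated genes with similar values. Just inside it were AAEL021022, AAEL008699 and AAEL005611, whose lowest larval values were 52.2, 52.8 and 53.8 CPM. Just outside were AAEL014239, AAEL010532 and AAEL005694, at 47.8, 47.6 and 46.6 CPM in their lowest larval library, and these 6 genes all had 0 counts in adults. On the adult side, AAEL005711, AAEL026898 and AAEL021278 were just outside with 12, 6 and 15 counts in their highest adult library, or 1.15, 1.38 and 1.44 CPM. The members nearest that line had 10, 4 and 4 counts.

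Absence from adults was uncommon among genes abundant in larvae. Besides the genes left out by name, 586 reached 50 CPM in every larval library, and the 45 members are 7.68% of them. Another 22 had a highest adult value over 1 and up to 10 CPM, 76 lay over 10 and under 50 CPM, and 443 were at 50 CPM or more in at least 1 adult library. With the stages exchanged, 10 of 463 genes at 50 CPM or more in every adult library were at 1 CPM or less in every larval one, or 2.16%. Both shares depend on depth, which was lower in each adult library than in each larval one.

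Each location taken alone gave a longer list. In its own larval and adult library, 103 genes passed both thresholds at location 1, 122 at location 2 and 97 at location 3. The 45 members are 43.7%, 36.9% and 46.4% of these lists. Of the 181 genes that passed at any location, 51 passed at exactly 2. Those that passed at 1 location alone numbered 20, 40 and 25, and 11, 26 and 18 of them were under 50 CPM in the larvae of both other locations. Most of the genes special to a location thus missed the larval threshold elsewhere, and 1, 8 and 2 were over it in both other larval libraries.

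**Figure D2:**
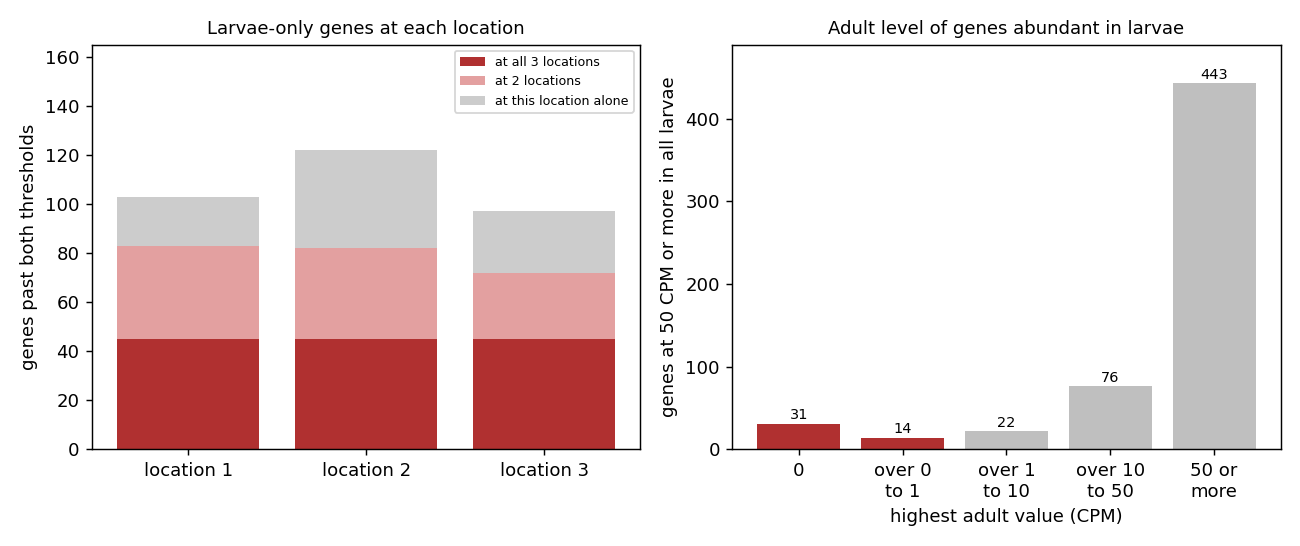
Left, the number of genes past both thresholds at each location, with the members at the base (dark red, 45 in each bar), then genes shared by 2 locations, then genes of that location alone (20, 40 and 25). Right, the highest adult value in CPM of the 586 genes at 50 CPM or more in all larval libraries, where the 2 dark red bars (31 and 14 genes) are the members.

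The larval libraries differed widely in these genes. The ratio of the highest to the lowest larval library had a median of 2.60 over the 45 members and 1.65 over the 541 other genes at 50 CPM or more in all larvae. The members were also more abundant, with a median larval mean of 480 CPM against 247 CPM, and a gene nearer the threshold of 50 CPM has less room for a large ratio. No comparison at matched levels was made. The ratio was under 2 for 13 members (28.9%) and for 67.5% of the others, and over 5 for 10 members (22.2%) and for 2.59% of the others. The rank order of the members' levels was also less alike between larval libraries, with Spearman's rho of 0.70 between locations 1 and 2, 0.79 between 1 and 3 and 0.70 between 2 and 3. For the other genes rho was 0.89, 0.92 and 0.87. These correlations are across genes of the same libraries, and the difference between the sets was not tested. With 1 pool per stage and location, the spread between pools of the same location was not measured.

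The larvae of location 3 were low in most of the members. Against location 1, 35 of 45 were lower at location 3, with a median log2 difference of -0.86, beside 0.05 for the other genes. Against location 2, 28 of 45 were lower at location 3, with medians of -0.37 and 0.27. The members thus stood 0.92 and 0.64 below the other genes on the log2 scale. A scaling factor for a whole library shifts both sets alike and cannot change this gap. Between locations 1 and 2 the medians were -0.38 for the members and -0.31 for the other genes. With TMM and DESeq2 scaling, 34 and 37 members were lower at location 3 than at location 1. Of the other genes, 61.0% and 50.5% were higher there. Against location 2, 38 and 37 members were lower at location 3, and 37.0% and 38.8% of the other genes were higher there. With CPM, the highest larval value fell at location 1 for 22 members (48.9%), at location 2 for 17 (37.8%) and at location 3 for 6 (13.3%). For the other genes these shares were 34.0%, 27.2% and 38.8%. TMM scaling moved the median of the other genes between locations 1 and 2 from -0.31 to 0.28. With that scaling the members' counts were 16, 26 and 3.

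The 10 members with ratios over 5 did not share 1 pattern, and those outside the 8 most abundant and the largest ratios were picked after their values were seen. AAEL015140 had the largest ratio, 40.1, and was high at location 1 only. AAEL000896, AAEL004770 and AAEL000890 followed with ratios of 21.1, 10.2 and 10.2, and all 3 were lowest in the larvae of location 3. AAEL004770 fell from 1180 CPM at location 1 to 439 at location 2 and 115 at location 3. AAEL003112 was at 1351, 151 and 210 CPM, and AAEL013792 at 886, 202 and 143 CPM, both high at location 1 alone. AAEL005609 was at 170, 655 and 73.0 CPM, and AAEL010609 at 212, 394 and 57.4 CPM, both highest at location 2. AAEL002960 and AAEL005960 were low at location 2, with 375, 56.2 and 453 CPM and 572, 93.2 and 371 CPM.

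Other members were almost level over the larval pools. AAEL017056 was at 1609, 1635 and 1441 CPM, the narrowest range of the set. AAEL024686 followed at 91.6, 111 and 108 CPM, and AAEL020852 at 253, 194 and 228 CPM. Their ratios were 1.13, 1.21 and 1.30. AAEL017056 had 1 adult count, at location 1, and the other two had none.

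**Figure D3:**
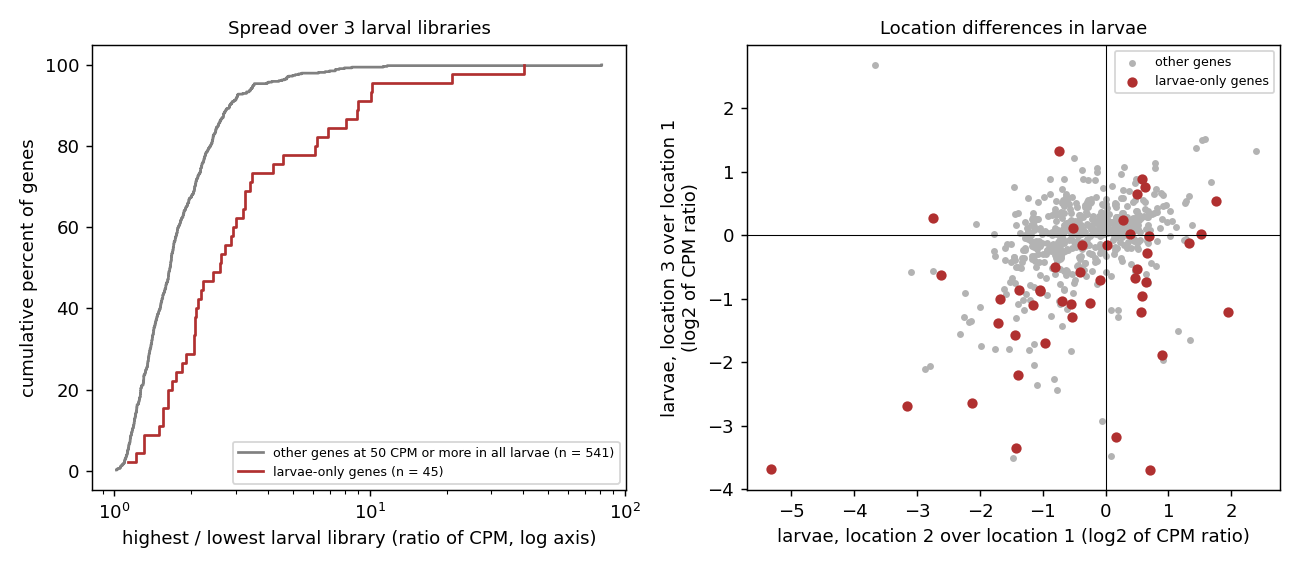
Left, cumulative percent of genes by the ratio of the highest to the lowest larval library (log axis), for the 45 members (red, median 2.60) and 541 other genes at 50 CPM or more in all larvae (grey, median 1.65). Right, each gene's log2 ratio of CPM in larvae, location 2 over 1 across and location 3 over 1 upwards, where 35 of the 45 members lie below the horizontal line.

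No member passed the test between locations. The test took all 6 libraries with stage as a covariate and ran on 5030 genes, which included all 45 members (edgeR's quasi-likelihood test, Benjamini-Hochberg adjustment over all tested genes, adjusted p under 0.05). Between locations 1 and 2 it called 0 of 45 members and 0% of all genes, and between locations 1 and 3 again 0 of 45 and 0%. Between locations 2 and 3 it called 0 of 45 members and 0.0795% of all genes. At an unadjusted p under 0.05 there were 1, 5 and 5 members, or 2.22%, 11.1% and 11.1% of the set, beside 2.13%, 1.93% and 2.6% of all genes tested. DESeq2 also called 0 members in each pair, beside 0%, 0.0199% and 0.119% of the genes tested. Since the members were nearly without counts in adults, their location differences rest on 1 larval library against another. Neither the lack of calls nor the members' adjusted p is weighed against a measured spread between pools of 1 location.

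The members with the smallest p were AAEL000896 between locations 2 and 3 (log2 fold change -4.79, edgeR adjusted p = 0.245) and AAEL015140 between locations 1 and 2 (log2 fold change -4.72, edgeR adjusted p = 0.84). Both were lower at the location named second. Over the alternative fits that kept all 6 libraries, the edgeR or DESeq2 adjusted p ranged from 0.00358 to 0.484 for AAEL000896. For AAEL015140 it ranged from 0.015 to 0.9998. Each passed with library totals and with no low-count filter. These fits called 0.139% and 0.551% of the genes tested between locations 2 and 3. Between locations 1 and 2 they called 0.0199% and 0.236%. Each also passed without the adults of location 2, which leaves that location with its larval library alone. No other fit called either gene in its pair. Without the larvae of a compared location no call was possible, since only an adult library without counts of the gene remained there. All 5 members with an unadjusted p under 0.05 between locations 1 and 3 were lower at location 3, namely AAEL000890, AAEL015140, AAEL000896, AAEL004770 and AAEL013792. Between locations 2 and 3, 4 of the 5 were lower at location 3 and AAEL002960 was higher.

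Between larvae and adults the same kind of test called 45 of 45 members higher in larvae, beside 6.7% of the 5030 genes. That contrast chose the members, so the count describes the rule and nothing else.

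The deposited tables also split each gene's reads into a forward and a reverse column, which hold different reads of the same library. Applied to the forward column alone, the rule chose 41 genes, of which 39 were members and 28 (68.3%) also passed both thresholds in the reverse column. Applied to the reverse column it chose 44, of which 34 were members and 28 (63.6%) passed in the forward column. Of the 41 genes chosen on the forward column, 5 missed the larval threshold in the other column and 8 missed the adult threshold. Of the 44 chosen on the reverse column, 12 missed the larval threshold and 5 the adult one. The column for both strands was used throughout, because forward counts exceeded reverse counts by a ratio of only 1.15 to 1.24 in the 6 libraries.

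The members' reads were divided unevenly between those columns more often than those of other genes. A library that does not keep strand gives a forward share near the middle for each gene. The middle range (lower to upper quartile) of the members' forward share was 35.6 to 56.5% in the larvae of location 1, against 48.3 to 58.1% for the 541 other genes. It was 42.0 to 56.2% against 49.1 to 55.1% at location 2, and 40.6 to 57.5% against 48.7 to 56.2% at location 3. In all 3 larval libraries, 9 members (20.0%) were under 40% and 7 (15.6%) were over 60%, beside 2.03% and 7.95% of the other genes. The rule did not use these shares, and the difference between the sets was not tested.

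The order of the members by forward share was much alike from pool to pool, though single members moved. Spearman's rho over the 45 members was 0.82 between the larvae of locations 1 and 2, 0.89 between 1 and 3 and 0.93 between 2 and 3, across genes that share the libraries. For the other genes it was 0.63, 0.66 and 0.76. Pearson's r was closer between the sets, at 0.86, 0.91 and 0.94 for the members and 0.83, 0.85 and 0.91 for the other genes. The difference between the sets was not tested. AAEL011917 had forward shares of 13.8, 15.7 and 18.2%, and AAEL012564 had 11.5, 13.0 and 19.0%. At the other end AAEL005691 had 97.2, 79.2 and 88.0%. AAEL024686 moved most between pools, at 12.1, 42.7 and 35.7%, and AAEL005609 moved almost as far, at 33.0, 57.1 and 63.1%. These genes were picked after their values were seen. AAEL007591 and AAEL009555, the most abundant members, were at 53.5 to 57.2% and at 50.8 to 57.0%.

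Overlap with a gene on the opposite strand can be read from the same columns, because reads in such an overlap are left out of the column for both strands. Forward and reverse counts summed to more than that column for 25 of the 45 members (55.6%) and for 23.5% of the other genes. Any excess was counted, however small, as in AAEL009555 with 0.000849%. A gene with more reads is likelier to show one, and the members had the higher median larval mean (480 against 247 CPM). These shares were not compared at matched levels. The excess passed 10% in 1 of the 45 members and in 3 of the 541 other genes. The member was AAEL008221, with an excess of 66.0%. Its larval values of 350, 498 and 546 CPM thus leave out many reads and are uncertain.

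**Figure D4:**
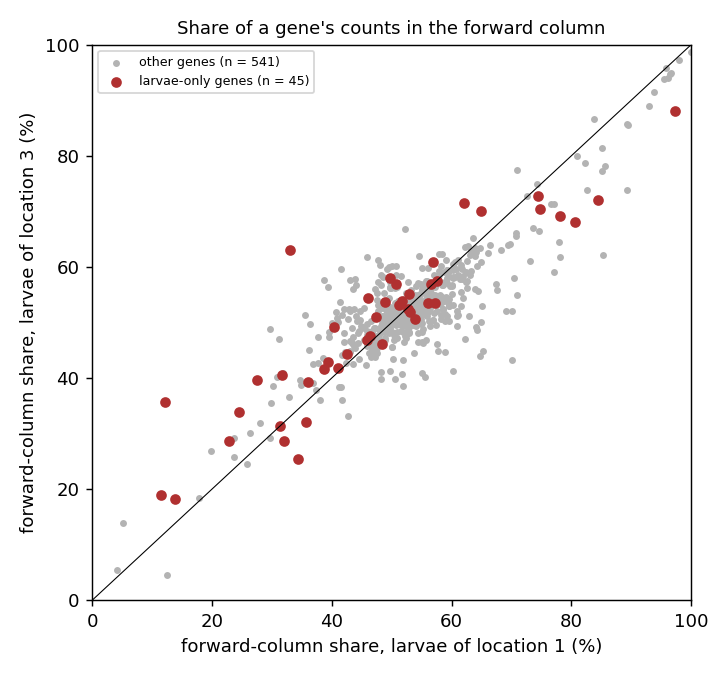
Share of a gene's counts in the forward column, in percent, in the larvae of location 1 (across) and location 3 (upwards), for the 45 members (red) and 541 other genes (grey), with the line of equal shares. In the larvae of location 1 the members run from 11.5% to 97.2% and the other genes from 4.09% to 99.96%. The middle range (lower to upper quartile) there is 35.6 to 56.5% for the members and 48.3 to 58.1% for the other genes.

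Some members carry neighbouring identifier numbers. With a step of at most 2, 10 of the 45 (22.2%) fell into 4 runs, beside 13.9% of the 541 other genes with such a neighbour in their own set. Close numbers are likelier in the larger set, so these shares are not comparable. The runs were AAEL005607, AAEL005609 and AAEL005611, AAEL007591 and AAEL007592, AAEL008206, AAEL008207 and AAEL008208, and AAEL011929 and AAEL011930. Levels within a run were unequal, with larval means from 106 to 1719 CPM in the first, 2807 to 10250 in the second, 311 to 1683 in the third and 676 to 1332 in the fourth. Within the third run, the larval values of AAEL008206 were 1517, 1988 and 1542 CPM, and those of AAEL008208 were 220, 341 and 372 CPM. Among the 108 identifiers within 2 of a member that are no members themselves, 40 had no count in any library and 9 were at 50 CPM or more in all larvae. The files give no positions for these identifiers, and whether such genes lie side by side was not tested.

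Reads across annotated introns gave a second view, for genes that the RefSeq table lists by symbol. No member was matched to a symbol, so the 2 sets may hold the same genes under different names. With the same thresholds on uniquely mapped junction reads, as CPM over all such reads of a library, 26 of 5473 RefSeq genes with junction reads were in larvae only, all of them protein-coding. They were 26 of 465 genes over the larval threshold, and 22 of the 26 had no adult junction read. Adult libraries held 1015348 to 3695380 junction reads, against 4404965 to 6341139 in the larval ones. The threshold of 1 CPM thus equalled 3.70, 1.02 and 1.63 reads in the adults of locations 1, 2 and 3. The 26 genes held 4.73%, 3.39% and 1.94% of the larval junction reads at locations 1, 2 and 3. This is the same order of locations as for the members. By chromosome, 6 of 116 genes over the larval threshold on chromosome 1 were in larvae only, 6 of 170 on chromosome 2 and 14 of 179 on chromosome 3.

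The larval pools also differed in junction reads, which are reads of the same libraries and no independent replicate. The ratio of the highest to the lowest larval library had a median of 2.59 over the 26 genes and 1.75 over the 439 others, and it passed 5 for 9 of the 26 (34.6%) and for 3.64% of the others. LOC5579954 on chromosome 1 was highest, with larval values of 22600, 18109 and 10032 junction CPM. LOC5579510 was at 5367, 125 and 485, high at location 1 only. LOC5567234 was at 3754, 5833 and 265, and its neighbour LOC5567235 at 1354, 1136 and 118, both low at location 3. In adults, 0 junction reads were counted for these 4 genes.

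Most of these genes had few introns in the data. The median number of annotated introns with reads was 1 in the 26 genes and 3 in the 439 others, and 14 of the 26 (53.8%) had a single one, beside 17.8% of the others. Of the 26, 10 lay in 4 runs, in which neighbours in the set were separated by 2 or fewer further coding genes. Runs were not counted among the 439 others, so this share has nothing to be compared with. The longest run, on chromosome 3, held LOC5566739, LOC5566738, LOC5566735 and LOC5566734, with larval means from 303 to 778 junction CPM and 33928 larval reads against 0 in adults. Its members differed between pools. LOC5566739 was highest at location 2, with 299, 1655 and 380, and LOC5566738 was lowest there, with 713, 298 and 823.

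**Figure D5:**
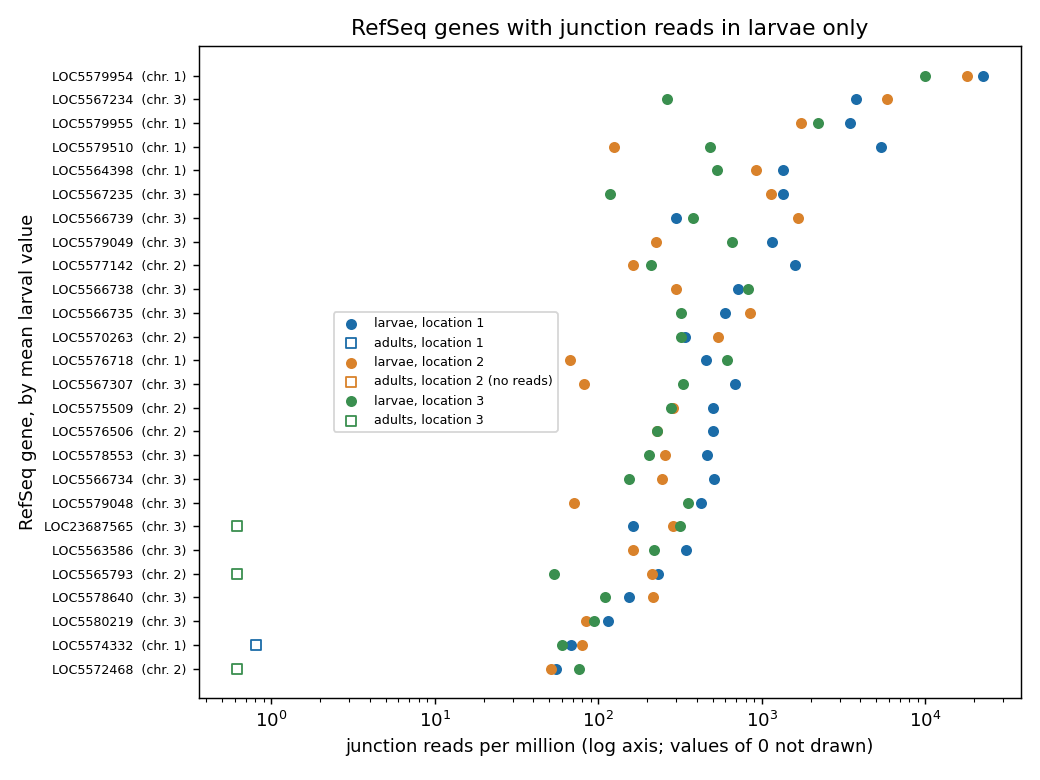
Junction CPM of the 26 RefSeq genes in larvae only, on a log axis, with filled circles for larval libraries and open squares for adult libraries with a read, in 1 colour per location. Values of 0 are not drawn, and 22 of the 26 genes have no adult read. LOC5579954 is highest in all larval libraries, and LOC5579510 spreads most, over 42.8-fold.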

How the data were processed

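Whole-body RNA from pools of mosquitoes was sequenced in 6 libraries. The submitters' processing notes name STAR, edgeR, fastp, cutadapt and FastQC, without versions. The genome build is not stated in the sources used here, nor is the annotation. The deposited tables hold raw counts per gene (both strands, forward, reverse) after 4 summary rows, which were left out, and raw counts of reads per intron.

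CPM are counts over the sum of gene rows, times 1000000. The members and lists were chosen with earlier results of these data known. Genes were tested across the whole table in R 4.3.3 with edgeR 4.0.16 (TMM, filterByExpr on stage, glmQLFit, glmQLFTest). DESeq2 1.42.0 was an alternative. For location pairs, a run on simulated counts gave each gene the same level in larvae and adults. The members had almost no adult counts, so that run does not cover them. Location pairs were fitted with stage in the model, which left 2 residual degrees of freedom. P-values set location differences against how far these differences depart between the stages. No spread between pools of the same location was measured. The members had almost no adult counts, so the test had almost no such spread of their own to use. Junctions were given to the single RefSeq gene that contains them: of 15077 annotated introns on the 3 chromosomes, 99.97% fell within AaegL5.0 RefSeq genes, so the builds were taken as matching for symbols and gene order only. Rules named the 8 most abundant members, the 3 nearest each threshold, the 3 widest and 3 narrowest in larvae, identifier runs and the 15 highest junction genes. Product words and sequences had no source and were not used. Python 3.11.15 with pandas 2.3.3 was used for all other values. Alternatives were other thresholds, scalings, columns, tests and filters, and each library left out.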

Additional observations from a re-analysis of the deposited data

How the results depend on the processing

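The number of members was 65 at 25 CPM and 32 at 100 CPM in larvae, 37 at 0.5 CPM, 51 at 2 CPM and 31 at no count in adults, and 43 with TMM scaling, of which 39 were members. With 1 library left out it ranged from 46 to 59. Their share of larval gene counts was 1.39% over all reads in the tables in place of 5.09% over gene counts, and 4.19 to 6.14% with 1 larval library left out. The median ratio of the highest to the lowest larval library was 1.62 to 1.85 with 1 larval library left out, where 2 libraries remain to compare. Between locations 1 and 2, 1 member (AAEL015140) was called with library totals, with no low-count filter and without the adults of location 2. Between locations 1 and 3, 1 (AAEL000896) was called with library totals. Between locations 2 and 3, 1 (AAEL000896) was called with library totals and with no low-count filter. With 1 library left out, 0 to 1, 0 to 3 and 0 to 2 members were called in the 3 pairs in the same order. The 3 between locations 1 and 3 and the 2 between locations 2 and 3 came without the adults of location 2, where the cause was not tested. AAEL003112 was called between locations 2 and 3 without the larvae of location 3. That fit leaves location 3 with 1 adult library that holds 4 counts of the gene, so the call says nothing of larvae. A fit without the larvae of a compared location that called no member says nothing of larvae either. The number of RefSeq genes in larvae only by junction reads, 26, ranged from 19 at 100 CPM to 36 without the larvae of location 2. With the location number as a replicate block the stage test called 45 members, beside 10.7% of the 5030 genes in either direction. That contrast chose the members, so this count describes the rule only. Larvae and adults of 1 number share a collection site, and the labels name no shared batch or day. Same-numbered larvae and adults had correlations of -0.0353, 0.0161 and -0.00381 in their deviations from the stage means. Depth limits the adult side, where 1 CPM is 3.27 counts at location 2. The highest larval value was at location 2 for 26 members with TMM and 24 with DESeq2 scaling, against 17 with CPM.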
